A study of Drosophila melanogaster with 3 samples.

Results

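The genes described are those that encode subunits of Mediator and of TFIID in Drosophila melanogaster. They were chosen by name, as every protein-coding gene whose symbol starts with MED or Taf followed by a digit. That rule gave 40 of the 13945 protein-coding genes on the 6 main chromosome arms, namely 25 MED genes and 15 Taf genes. Of the Taf genes, 14 encode the TAFs of ordinary, broadly expressed TFIID and 1, Taf12L, encodes a testis TAF. The other 4 testis TAF genes (can, mia, nht and sa) have names outside the rule and were added only where testis and broadly expressed TAFs were compared, which made 5 testis genes.

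The measurement was chromatin immunoprecipitation followed by sequencing (ChIP-seq) of CG11504, a protein known here only by its gene number, in 3 biological replicates that form 1 group. All samples came from whole embryos of mixed sex, collected over the first 18 h of development, of the strain CG11504, a transgenic line in which GFP is fused to the C terminus of CG11504. Sonicated chromatin, in fragments between 200 and 800 bp, was immunoprecipitated with anti-GFP, so each map averages many embryos, all cell types and all stages of that span. No untagged or wild-type line, second age or second genotype was analysed, and which promoter drives the fusion is not given in the sources used here.

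Mediator is a large complex that carries signals from transcription factors on DNA to RNA polymerase II, and it is built of a head and a middle module that meet the polymerase, a tail that meets transcription factors, a scaffold subunit that joins them and a kinase module that comes and goes. TFIID consists of the TATA-binding protein and the TAFs, and it recognises core promoters and starts assembly of the polymerase machinery on them. In the Drosophila male germ line, testis-specific copies of several TAFs are needed to switch on the genes of sperm differentiation. Both complexes serve nearly all cells, so most of their genes are broadly expressed.

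A gene was called bound when any of its start sites had the summit of a peak within 500 bp. The peaks were the 10650 of the list that the authors thresholded on the irreproducible discovery rate (IDR), a filter that keeps peaks found at similar rank in replicates. By that rule 22.9% of all protein-coding genes were bound. A gene's value in a replicate was the rank of its peak among the 30000 deposited for that replicate, with rank 1 the strongest, and a gene counted as bound in a replicate when the peak was among the 10650 strongest. Each list was called against the same control alignment, so the lists are not independent, and read depth is unknown.

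CG11504 was found at the start sites of 11 of the 40 genes, which is 27.5% (95% exact binomial interval over genes 14.6 to 43.9%, counting error only) beside 22.9% of all genes. The share is near the background and is no result about the genes as a set. The bound genes were MED4, MED17, MED25, MED27, MED30 and MED31 of Mediator and Taf2, Taf5, Taf6, Taf12 and Taf13 of TFIID. All 11 were bound in each of the 3 replicates. With or without an IDR call, 11 of the 40 genes were so, beside 2762 of all 13945 protein-coding genes. The IDR list was derived from these replicates and keeps peaks that recur in them, so this agreement is partly built in. Genes are not replicates of a condition, so no p-value was computed for any share.

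The sequence under the strongest summit is shown for bound genes because these stretches are what the immunoprecipitation recovered most. Each run holds the 50 bases on either side of the IDR summit, read 5′ to 3′ on the strand of the gene, from the RefSeq reference genome in dm6 coordinates. Capitals mark a match to one of the 6 motifs searched in these promoters, which are spelled out beside the motif counts. Stretches with more than 30 exon bases are left out, as is that of Taf5.
MED17 (chr3R:18188878-18188978, plus strand): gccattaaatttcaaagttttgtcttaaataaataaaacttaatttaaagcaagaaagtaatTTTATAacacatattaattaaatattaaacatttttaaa
MED25 (chr3R:20008785-20008885, plus strand): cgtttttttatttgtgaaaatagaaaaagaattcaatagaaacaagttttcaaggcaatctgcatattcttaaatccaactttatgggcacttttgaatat
MED27 (chr3R:5654954-5655054, plus strand): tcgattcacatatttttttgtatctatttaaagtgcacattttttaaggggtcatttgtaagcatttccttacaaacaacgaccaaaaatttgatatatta
MED30 (chr3L:654221-654321, minus strand): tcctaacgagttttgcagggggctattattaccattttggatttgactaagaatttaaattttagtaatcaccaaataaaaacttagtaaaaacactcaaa
MED31 (chr3R:4641710-4641810, plus strand): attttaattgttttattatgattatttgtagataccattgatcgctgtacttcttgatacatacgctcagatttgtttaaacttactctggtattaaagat
Taf6 (chr3L:19598847-19598947, plus strand): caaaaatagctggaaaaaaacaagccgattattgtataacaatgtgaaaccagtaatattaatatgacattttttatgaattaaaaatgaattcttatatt
What these stretches share is a high content of A and T. Stretches matched in position at unbound genes were not measured, so this is not shown to be particular to bound sites. The share of G and C was 14.9% at MED17, 21.8% at Taf6, 26.7% at each of MED25, MED27 and MED31, and 28.7% at MED30. Over the 11 bound genes the median was 26.7%, with a range of 14.9 to 37.6%, and over all 3196 bound protein-coding genes it was 31.7%. Of the 6 stretches, 1 held a motif match, a TATA box sequence at MED17.

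The stretches that end at the start site itself are shown for genes that were not bound in the IDR list. They cover other positions than the summit stretches, so motifs cannot be compared between the displays. MED11, MED22, MED28, Taf3, Taf12L and nht were picked, after their sequences were seen, to show the motifs that the gene groups held or lacked. MED11 and nht had weaker peaks in all replicates, and the replicate summits at MED11, with offsets of -91, -62 and -89 bp from the start, lie within the stretch shown. Each run ends at the first base of the gene and is written and marked in the same way.
MED11 (chr3L:18745756-18745856, plus strand): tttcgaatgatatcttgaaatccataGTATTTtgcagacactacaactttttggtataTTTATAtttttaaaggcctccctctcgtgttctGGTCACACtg
MED22 (chrX:928039-928139, plus strand): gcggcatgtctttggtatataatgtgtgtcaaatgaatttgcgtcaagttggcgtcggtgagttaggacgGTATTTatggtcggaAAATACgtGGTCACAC
MED28 (chr3R:25476903-25477003, plus strand): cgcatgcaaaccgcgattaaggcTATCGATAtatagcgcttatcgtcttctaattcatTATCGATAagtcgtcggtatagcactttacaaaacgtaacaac
Taf3 (chr4:466828-466928, minus strand): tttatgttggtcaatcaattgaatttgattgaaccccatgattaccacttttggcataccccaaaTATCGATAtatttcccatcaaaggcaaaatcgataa
Taf12L (chr2L:4701485-4701585, minus strand): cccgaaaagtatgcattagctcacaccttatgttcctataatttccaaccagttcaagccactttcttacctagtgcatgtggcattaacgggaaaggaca
nht (chr2L:15318901-15319001, minus strand): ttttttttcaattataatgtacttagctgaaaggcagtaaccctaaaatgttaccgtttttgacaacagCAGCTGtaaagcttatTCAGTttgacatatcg
MED11 and MED22 carried GGTCACAC within a few bases of the start, MED28 carried TATCGATA at 2 places and Taf3 carried it once. The stretch before Taf12L held no match to the 6 motifs, and that before nht held an E-box and an initiator sequence.

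Among the Mediator genes 6 of 25 were bound, or 24% (interval 9.36 to 45.1%), which is close to the 22.9% of all genes. In replicate 1 the count was 8 of 25, or 32%, beside a background of 25% of all genes. In replicate 2 it was 6 of 25, or 24%, beside 23.2%, and in replicate 3 it was 7 of 25, or 28%, beside 25.1%. The mean over replicates was 28% ± 4 (SD, n = 3), against 24.5% ± 1.10 for all protein-coding genes. The gap to the background was widest in replicate 1.

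The head module, which contacts RNA polymerase II, had 1 bound gene of 7, MED17. MED17 is a central subunit of the head. Its peak (chr3R:18188618-18189180) held rank 1277, 1222 and 1960 in the 3 replicates, a mean of 1486 ± 411 (SD, n = 3), and rank 1367 in the IDR list. The 3 replicates thus placed it at a similar height. MED6, MED8, MED11, MED18, MED20 and MED22 had no IDR summit within 500 bp.

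The middle module had 2 bound genes of 9, MED31 and MED4. MED31, one of the most conserved Mediator subunits, had a peak (chr3R:4641474-4642042) at rank 1307, 1484 and 1781 in the replicates (mean 1524 ± 240, SD, n = 3). MED4, a subunit of the same module, had a peak (chr3L:7250508-7250854) at rank 2621, 3026 and 2564 (mean 2737 ± 252, SD, n = 3). Both kept to a narrow band of ranks, MED31 above MED4 in every replicate. MED1, MED7, MED9, MED10, MED19, MED21 and MED26 were not bound, nor was MED14, the scaffold that joins the modules.

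The tail and the subunits between head and tail had 3 bound genes. MED30 had the strongest peak of the Mediator genes (chr3L:653985-654496), at rank 888, 1001 and 772 in the replicates (mean 887 ± 115, SD, n = 3) and 856 in the IDR list. MED27 followed (chr3R:5654762-5655217), at rank 905, 1312 and 1330 (mean 1182 ± 240, SD, n = 3). These subunits lie at the junction of head and tail, and MED28, the third gene of that group, was not bound. MED25, a tail subunit that binds transcriptional activators in mammals, had the weakest of the 6 Mediator peaks (chr3R:20007393-20009035). Its rank was 4692, 5177 and 9308 in the replicates (mean 6392 ± 2537, SD, n = 3), so replicate 3 stood well below the others. The MED25 call was lost when replicate 2 or replicate 3 was left out. The leave-out rule asks for a summit within 100 bp of the IDR summit in both replicates kept. At MED25 the replicate 1 summit, at -225 bp, was farther than that from the IDR summit at -112 bp. MED15, MED16, MED23 and MED24 of the tail had no IDR summit within 500 bp.

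Of the TFIID genes other than Taf12L, 5 of 14 were bound, or 35.7% (interval 12.8 to 64.9%), and the same 5 genes made up the count in each replicate. With Taf12L the count was 5 of 15 Taf genes, or 33.3%. The interval includes the 22.9% of all genes. Taf2, which with Taf1 recognises the initiator sequence, had the strongest peak of all 40 genes (chr3L:9888604-9889194). Its rank was 387, 314 and 603 in the replicates (mean 435 ± 150, SD, n = 3) and 395 in the IDR list. Taf5, a scaffold protein of TFIID with WD40 repeats, came next (chr2R:10879600-10880061), at rank 666, 591 and 621 (mean 626 ± 37.7, SD, n = 3). The ranks of Taf5 were close together, and the replicate ranges of Taf2 and Taf5 overlapped slightly.

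The other bound TFIID genes encode histone-fold proteins, which sit in TFIID as pairs. Taf6 had a peak (chr3L:19598671-19599177) at rank 2163, 3471 and 4565 (mean 3400 ± 1203, SD, n = 3). Taf13 had a peak (chr2L:20093903-20094145) at rank 3924, 6025 and 9041 (mean 6330 ± 2572, SD, n = 3). Taf12 had a peak (chr3R:11679507-11679956) at rank 6610, 10310 and 7055 (mean 7992 ± 2020, SD, n = 3), which in replicate 2 was near the end of the 10650 strongest. These peaks were weaker than those of Taf2 and Taf5 in every replicate. The pairing partner of each was not bound: the nearest IDR summit was 2684 bp from Taf9, the partner of Taf6, 744 bp from Taf4, the partner of Taf12, and 4868 bp from Taf11, the partner of Taf13. Only partners of bound genes were examined, and 10749 of all 13945 protein-coding genes were unbound. No pattern within pairs can be read from this. Taf1, the largest TAF, Taf3, Taf7, Taf8, Taf10 and Taf10b also had no IDR summit within 500 bp.

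**Figure D1:**
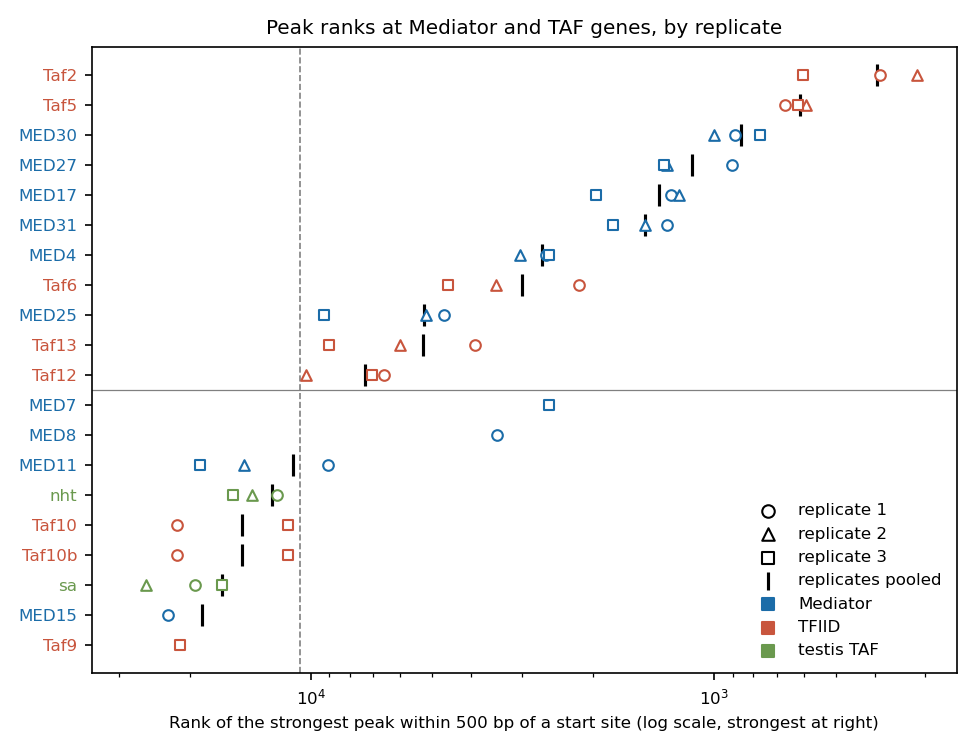
Rank of the strongest peak within 500 bp of a start site (log axis, strongest at right) for every Mediator, TFIID or testis TAF gene that has a peak there in any deposited replicate or pooled list. Open symbols are replicates 1, 2 and 3, the black bar is the pooled list, genes above the horizontal line are bound in the IDR list, and the dashed line marks rank 10650. The 11 bound genes lie to the right of the dashed line in all 3 replicates, from Taf2 at the top to Taf12.

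Mediator and TFIID stood at 24% and 35.7% in the IDR list, a difference of -11.7 percentage points, Mediator minus TFIID. In replicates 1, 2 and 3 this difference was -3.71, -11.7 and -7.71 points (mean -7.71 ± 4, SD, n = 3). The sign was the same in all replicates, but a single TFIID gene is worth 7.14 points and the 2 intervals over genes overlap widely. The order was reversed when each summit was given only to the nearest start site. Then 3 of 25 Mediator genes (12%) and 1 of 14 TFIID genes (7.14%) were bound, beside 18.7% of all genes.

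**Figure D2:**
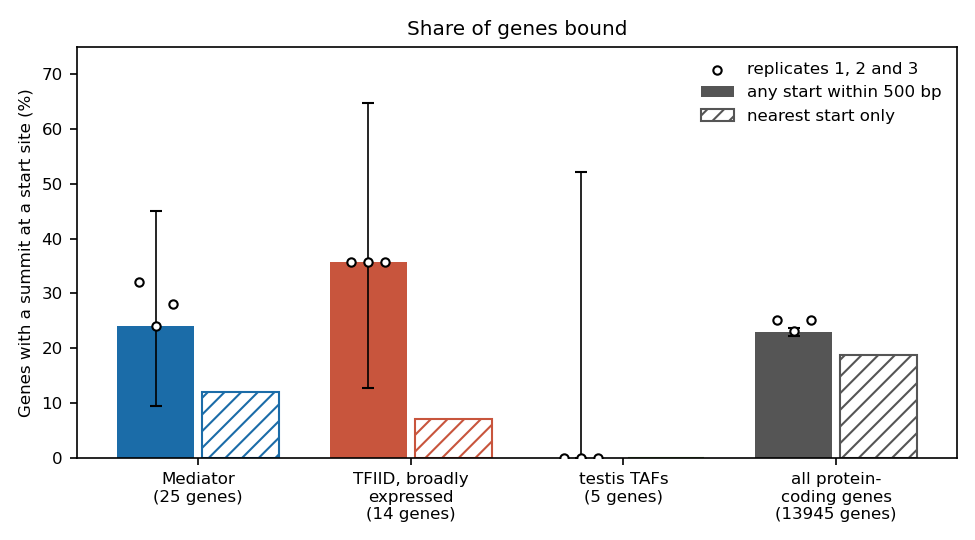
Percent of genes bound in each group: filled bars for a summit within 500 bp of any start site in the IDR list, hatched bars when a summit counts only for its nearest start. Lines are 95% exact binomial intervals over genes and open circles are replicates 1, 2 and 3. The intervals of Mediator (9.36 to 45.1%) and TFIID (12.8 to 64.9%) include the 22.9% of all genes, and both shares fall below that of all genes in the hatched bars.

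None of the 5 testis TAF genes was bound, in the IDR list or among the strongest peaks of any replicate, beside 22.9% of all genes. With 5 genes, a count of 0 allows a share of up to 60% by the rule of 3 counts of the total, and up to 52.2% by the exact binomial interval. Either limit includes the share of all genes, and the difference of 35.7 points from the broadly expressed TFIID genes was not resolved by so few genes. Set beside their broadly expressed counterparts, the testis genes gave 5 pairs. Taf5 was bound and can, its testis counterpart, had its nearest IDR summit at 4068 bp. Taf6 was bound and mia had its nearest summit at 14582 bp, and Taf12 was bound and Taf12L had its nearest at 5421 bp. In the other pairs neither gene was bound: the distance was 744 bp for Taf4 and 2286 bp for nht, and 7038 bp for Taf8 and 5598 bp for sa. The broadly expressed gene was nearer to a summit in 4 of the 5 pairs, all except Taf8 and sa. In 3 of these it was already called bound and its counterpart was not, so the order there follows from the calls. The median distance of the testis genes, 5421 bp, was near the 5684 bp of all protein-coding genes.

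Weak peaks were nevertheless listed near 2 testis genes. A peak upstream of nht held rank 12177, 14048 and 15631 in the replicates and 12515 in the pooled list. A peak upstream of sa held rank 19400, 25704 and 16609, and 16642 in the pooled list. These ranks were outside the 10650 strongest in every replicate, and 2 of 5 testis genes (40%) had a pooled peak, beside 30.4% of all genes. The genes can, mia and Taf12L had no listed peak within 500 bp in any replicate. No expression data were analysed, so whether these genes were active in the sample was not tested.

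The genes on either side of the 500 bp limit were few. The farthest bound summit was that of Taf2, 269 bp from the start. Just outside lay MED15, a tail subunit that binds SREBP transcription factors in other animals, with a strong summit of rank 791 at 535 bp upstream, and Taf4, a central TFIID subunit, with one of rank 7930 at 744 bp upstream. With a limit of 1000 bp these 2 genes were added, which gave 7 of 25 Mediator and 6 of 14 TFIID genes beside 26.7% of all genes. The next nearest were Taf10b and Taf10 at 1806 and 1851 bp, which are transcribed away from each other from starts 45 bp apart, and MED11 at 1986 bp. No gene of the 40 had an IDR summit in its body farther than 500 bp from its own starts. The share of all genes with such a summit was not computed, and short genes such as MED4 and Taf13 have little body beyond that distance.

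Some unbound genes had a peak in 1 or more replicates. MED7, a subunit of the hinge of the middle module, had a peak of rank 2569 in replicate 3 and no listed peak within 500 bp in the other replicates. MED8 of the head had one of rank 3464 in replicate 1 and none in the others. MED11 of the head had a peak in every replicate, at rank 9060, 14645 and 18862, of which the first was among the strongest. Taf9 had only a weak peak, of rank 21127 in replicate 3. MED15 had a weak one of rank 22573 in replicate 1 and 18672 in the pooled list. At the paired starts of Taf10 and Taf10b a peak held rank 21557 in replicate 1, 11388 in replicate 3 and 14800 in the pooled list. MED7, MED8 and MED11 account for the higher Mediator counts in replicates 1 and 3. Peaks of the replicates' 10650 strongest with no pooled summit within 500 bp of their own were 4.62%, 3.55% and 5.01% of the lists of replicates 1, 2 and 3. MED7 and MED8 had no pooled summit within 500 bp of their starts. The distance from their replicate summits to a pooled summit was not measured.

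At larger distances more genes were reached. The median distance from a gene to its nearest IDR summit was 4006 bp for Mediator, 1828.5 bp for TFIID, 5421 bp for the testis TAFs and 5684 bp for all protein-coding genes. Within 5000 bp of a summit lay 14 of 25 Mediator genes (56%), 10 of 14 TFIID genes (71.4%) and 2 of 5 testis genes (40%), beside 47.1% of all genes. The farthest were MED21 of the middle module, on arm 3L, 1844100 bp from a summit, MED26 on chromosome 4, at 238316 bp, and MED23 of the tail, at 34653 bp.

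**Figure D3:**
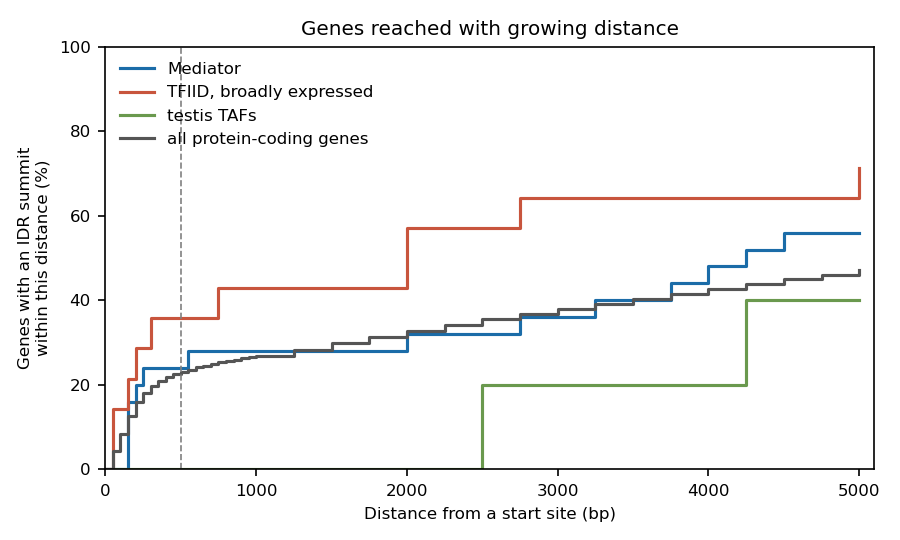
Percent of genes (vertical axis) with an IDR summit within a given distance of a start site (horizontal axis, bp), for the 4 groups. The dashed line is the limit of 500 bp. The Mediator line crosses that of all genes more than once, the TFIID line is above it from 500 bp on, and the testis line leaves 0 at 2500 bp.

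The bound genes differed in how strong their peaks were among the bound. The peak of a bound Mediator gene was stronger than 86.6% of the IDR peaks in the median, with a range of 50.8 to 92.0%. For TFIID the median was 71.8%, with a range of 30.9 to 96.3%, and for all bound protein-coding genes it was 68.0%. In the replicates the Mediator median was 81.6%, 86.9% and 81.6%, the TFIID median 79.7%, 67.4% and 57.1%, and that of all bound genes 68.9%, 67.1% and 62.8%. The Mediator median was the highest of the 3 in each replicate, over 8, 6 and 7 bound Mediator genes, which were not all the same genes. Mediator peaks ranged from 14.9 to 91.7%, 51.4 to 90.6% and 12.6 to 92.8% in replicates 1, 2 and 3. TFIID peaks ranged from 37.9 to 96.4%, 3.19 to 97.1% and 15.1 to 94.3%. Both groups thus spread from strong to weak peaks in replicates 1 and 3. Among the 1000 strongest IDR peaks were those at Taf2, Taf5 and MED30, so 3 of 40 genes, or 7.5%, beside 4.42% of all genes.

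All 11 strongest summits lay upstream of the gene's start, between 42 bp at Taf12 and 269 bp at Taf2, with a median offset of -148 bp. For all bound protein-coding genes the median was -144 bp and 87.3% were upstream. The replicates placed the summit within a few bases at Taf5 (-167, -166 and -175 bp, SD 4.93 bp) and at MED31 (-206, -195 and -200 bp, SD 5.51 bp). The widest scatter was at MED25 (-225, -102 and -212 bp, SD 67.6 bp), which also had the broadest peak, of 1643 bp. At Taf6 a second IDR peak, of rank 6890, had its summit 20 bp past the start.

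Most of these genes share their upstream region with a neighbour transcribed the other way. The start of a protein-coding gene on the opposite strand lay within 1000 bp upstream of 19 of 25 Mediator genes (76%) and 12 of 14 TFIID genes (85.7%), and of none of the 5 testis genes, beside 36.2% of all protein-coding genes. Among all genes, those with such a partner were bound more often, 31.1% against 18.3% of those without. Among the 40 genes 10 of 31 with a partner (32.3%) and 1 of 9 without (11.1%) were bound, which are near those shares. The bound gene without a protein-coding partner was MED4, which has the start of the antisense RNA gene asRNA:CR43470 on the opposite strand at an offset of -113 bp. By the gap between paired starts, 2 of 10 genes were bound at 0 to 100 bp (20%, beside 24.3% of all genes with such a gap) and 2 of 5 at 101 to 200 bp (40%, beside 23.4%). At 201 to 500 bp 6 of 11 were bound (54.5%, beside 36.9%), and at 501 to 1000 bp 0 of 5 (beside 29.3%). No order by gap can be read from counts this small.

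A summit between paired starts counts for both genes, and in most cases it was not nearest to the Mediator or TFIID gene. For 7 of the 11 bound genes (63.6%) every IDR summit within 500 bp was nearer to the start of another gene, beside 18.4% of all bound genes. These shares are not from like promoters. A protein-coding partner was present at 10 of the 11, but at 1573 of all 3196 bound genes, and the share among those alone was not computed. The summit at Taf2 was 152 bp from a start of CalpB, a calpain gene. The one at Taf5 was 135 bp from Pex6, a gene of peroxisome assembly. The one at MED30 was 92 bp from Rev1, a gene of DNA damage tolerance. The nearest start was thus the neighbour's at the 3 strongest peaks of the group.

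The others of this kind were MED31, 78 bp from CG9775, MED4, 35 bp from asRNA:CR43470, Taf13, 18 bp from nesd, and Taf12, 11 bp from Ho, the haem oxygenase gene. MED31 also has its start at the same base as slx1, so its peak counts for all 3 genes. At MED17, MED25 and MED27 the summit was nearest to the gene itself, at 144, 112 and 135 bp, with the partners CG12321, Hs6st and elm farther away. At Taf6 the strongest summit was 142 bp from ash1, a Trithorax gene, and the weaker one was at Taf6 itself. A peak list cannot tell which of the paired genes a summit belongs to.

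**Figure D4:**
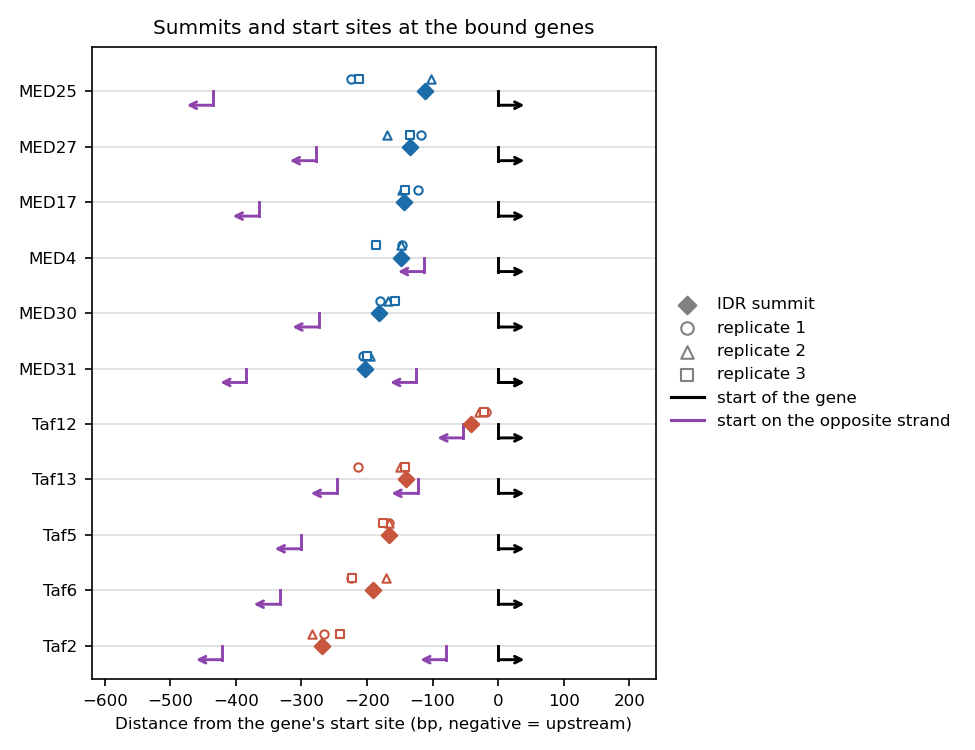
Position of the summits at the 11 bound genes relative to the gene's own start (0, black arrow in the direction of transcription, negative values upstream, bp). Diamonds are the strongest IDR summits, open symbols those of replicates 1, 2 and 3, and purple arrows are starts on the opposite strand. All diamonds lie between -269 and -42 bp, and in 7 genes a purple arrow starts nearer to every IDR summit than the black one.

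Mediator promoters held the DRE and the Ohler 1 motif more often than promoters in general, which is given as a description. The promoters compared are not alike. A protein-coding partner on the opposite strand lay upstream of 76% of Mediator genes, beside 36.2% of all genes. The window can take in the partner's start, so a match may lie in the partner's promoter. Motif shares among genes with a partner alone were not computed. The 6 short motifs of fly promoters searched on both strands, from 250 bp before to 50 bp after the outermost start, were the DRE TATCGATA, the Ohler 1 motif GGTCACAC, which the factor M1BP reads, the Ohler 6 motif GTATTT, the TATA box TATAAA, the E-box CAGCTG and the initiator TCAGT. The initiator and Ohler 6 motifs can overlap by their shared GT. The DRE was in 7 of 25 Mediator promoters (28%), 1 of 14 TFIID promoters (7.14%) and none of the 5 testis promoters, beside 9.36% of all promoters of that length. It was in 2 of the 6 bound Mediator promoters (33.3%), MED17 and MED25, and 5 of the 19 unbound (26.3%). The Ohler 1 motif was in 9 of 25 Mediator promoters (36%), 3 of 14 TFIID promoters (21.4%) and none of the testis promoters, beside 7.70% of all.

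The Ohler 1 motif was unevenly placed between bound and unbound genes. It was in none of the 6 bound and 9 of the 19 unbound Mediator promoters, among them MED11 and MED22. Of the bound TFIID genes it was at Taf5, and of the unbound at Taf1 and Taf4. In all, 1 of 11 bound (9.09%) and 11 of 29 unbound genes (37.9%) of the 40 held it. Among all protein-coding genes the order was the other way, 11.5% of bound and 6.56% of unbound promoters. With so few bound genes and no test, the pattern is a description, and a match is not evidence that a factor sits there.

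The initiator sequence was less frequent in these promoters than in general, at 11 of 40 (27.5%, beside 51.5% of all). It was counted anywhere in the window on either strand, so a match need not lie at the start. The Ohler 6 motif was in 16 (40%, beside 33.4%), the TATA sequence in 21 (52.5%, beside 45.8%) and the E-box in 6 (15%, beside 17.7%), which are nearer the background. Among the 5 testis promoters, 3 held the E-box and 3 the initiator, and 4 held the TATA sequence. The TATA counts depended on the window: from 100 bp before to 50 bp after the start, 0 of the 5 testis promoters and 7 instead of 12 of the Mediator promoters held it. In that window the initiator was in 4 instead of 7 Mediator and 2 instead of 4 TFIID promoters. The E-box was in 1 instead of 3 Mediator promoters, and the Ohler 6 motif in 3 instead of 5 TFIID promoters. Shares of all promoters were not computed for that window. Under the 11 strongest summits themselves, within 50 bp, no DRE, Ohler 1 or E-box sequence was found, which were also rare under the summits of all bound genes, at 2.75%, 2.44% and 4.88%. In those 11 stretches TATAAA was in 4 (36.4%, beside 24.2% of all bound genes), and the Ohler 6 and initiator motifs were in 1 each (9.09%, beside 16.7% for either).

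**Figure D5:**
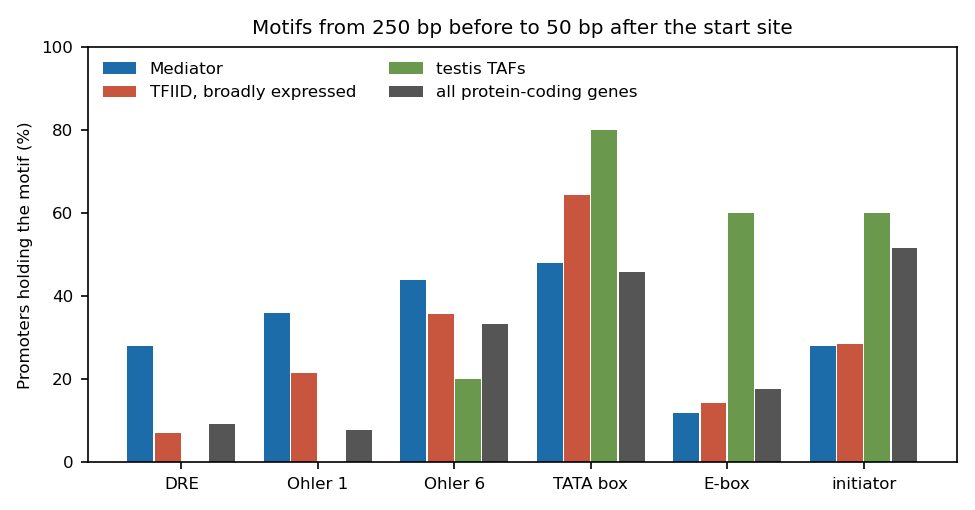
Percent of promoters (from 250 bp before to 50 bp after the outermost start) that hold each of 6 motifs on either strand, for Mediator (25 genes), TFIID (14), testis TAFs (5) and all protein-coding genes (13945). The DRE (28%) and the Ohler 1 motif (36%) are more frequent in Mediator promoters than in all promoters (9.36% and 7.70%), and the testis promoters hold neither. Partner genes on the opposite strand are also more frequent at Mediator genes (76%) than at all genes (36.2%), and the window can take in their starts.

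The bound genes were spread over the arms unevenly. Of the 40 genes, 5 of 10 on 3R and 4 of 12 on 3L were bound, with 1 of 7 on 2L and 1 of 5 on 2R, and none of the 4 on X or the 2 on chromosome 4. Of all protein-coding genes between 20.1 and 24.8% were bound on each arm except chromosome 4, where 6.25% were. With counts this small no difference between arms was resolved.

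Genes of the same machinery with other names were bound in shares from 0 to 40%, beside the 22.9% of all protein-coding genes. Of the 5 Mediator genes outside the naming rule, skd, which encodes the MED13 subunit of the kinase module, and ix, another subunit, were bound, and kto, Cdk8 and CycC of the kinase module were not, so 2 of 5 were. The call of ix was lost without replicate 1 or replicate 2, and its rank in replicate 3 was 13836. None of the 3 genes of the TATA-binding protein family, Tbp, Trf and Trf2, was bound, with the nearest IDR summit 13163, 9307 and 3432 bp away. Of 18 other general transcription factor genes 3 were bound (16.7%), TfIIEalpha, a subunit of TFIIE, and Ssl1 and Tfb5, subunits of TFIIH. The peak at Ssl1 held rank 128, stronger than any of the 40 genes, but its summit was 81 bp from Chro and 186 bp from Ssl1. Of 16 genes of SAGA, a co-activator complex that shares subunits with TFIID, 6 were bound: Gcn5, Ada3, Spt3, Sgf11, e(y)2 and Atxn7, or 37.5%, with an interval of 15.2 to 64.6% that includes the share of all genes. Spt3 had no peak within 500 bp in replicate 3, and its call was lost without replicate 1 or replicate 2. Many of these summits were also nearer to the start of another gene. With the nearest start only, 1 of the 5 other Mediator genes (20%) was bound, with 1 of 18 general factor genes (5.56%) and 2 of 16 SAGA genes (12.5%). The share of all genes was then 18.7%.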

How the data were processed

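ChIP-seq peaks of CG11504-GFP were analysed in 3 replicates of 1 group. The deposited lists are in dm6 coordinates and give each peak a signal value relative to 1 control alignment. Its scale, the peak caller and the parameters were not given in the sources used here. Lists end at 30000 peaks for each replicate and for the replicates pooled, and the IDR list, derived from them per the deposited text files, holds 10650. Signal was used only to rank peaks within a list. The deposited summit offsets gave positions counted from 1. Read depth is unknown.

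Genes came from Ensembl release 115 and sequence from the RefSeq genome of the same assembly. Shares carry 95% exact binomial intervals over genes, which cover counting error only, as does the limit for a count of 0. No p-value was computed. Where a gene had several IDR summits, the strongest was described, and replicate ranks are of the peak whose summit was closest to it. Named genes were every bound gene, the nearest unbound ones, those with a peak in a replicate only, and the testis TAFs. Members and lists were chosen with earlier results of these data known. The replicate numbers come from the labels. Of the other gene lists, 1 symbol was not matched. The counting was tested on simulated data. Computations used scipy 1.17.1 and pandas 2.3.3 with numpy 2.4.6 under Python 3.11.15, and matplotlib 3.10.9 drew the plots. Alternatives were other distances, stricter and looser lists, outermost or nearest starts, leaving out a replicate, and a shorter motif window.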

Additional observations from a re-analysis of the deposited data

How the results depend on the processing

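The share of all protein-coding genes bound was 18.1% within 250 bp, 26.7% within 1000 bp, 15.8% with IDR peaks above the median signal, 4.42% with the 1000 strongest, 30.4% with all pooled peaks, 20.7% with the outermost start only and 18.7% with the nearest start only, and 19.4 to 20.0% without 1 replicate. In the settings where a group's share moved by more than the replicate SD, Mediator was at 4% with the 1000 strongest peaks, 32% with all pooled peaks and 12% with the nearest start only. In the order 250 bp, 1000 bp, peaks above the median, 1000 strongest, all pooled and nearest start only, the TFIID share was 28.6%, 42.9%, 28.6%, 14.3%, 50% and 7.14%, and with Taf12L included it was 26.7%, 40%, 26.7%, 13.3%, 46.7% and 6.67%. The testis share rose to 40% with all pooled peaks. The difference between TFIID and testis TAFs took the values of the TFIID share, except 10 points with all pooled peaks. Mediator minus TFIID was -4.57 points within 250 bp and with peaks above the median, -18 with all pooled peaks, and reversed to 4.86 with the nearest start only. Without replicate 2 or replicate 3 MED25 was no longer bound, and ix and Spt3 were lost without replicate 1 or replicate 2. At each loss a kept replicate had no summit among its 10650 strongest within 100 bp of the IDR summit. That was replicate 1 for MED25 and replicate 3 for ix and Spt3. TFIID and testis shares had a replicate SD of 0, so any change in them counts as moved.

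Of 440 calls of single genes under the alternatives, 413 equalled the main call and 27 did not; of 18 motif counts, 12 stayed within 1.5 times under the shorter window. No paired analysis was possible because there is 1 group. The caller's scale, the read depth and the control's own data limit what these lists can show: small peaks cannot be told from background here. The cause of these changes was not tested.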
